A study of Sus scrofa with 26 samples.

Results

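Lipolysis is the stepwise release of fatty acids and glycerol from the triglycerides stored in fat cells. The genes described here are 9 genes of this pathway in pigs, namely PNPLA2, LIPE and MGLL, which encode the lipases, ABHD5, G0S2 and PLIN1, which encode regulators at the lipid droplet, ADRB1 and ADRB3, which encode beta-adrenergic receptors, and PDE3B, which encodes a phosphodiesterase. A probe was taken when its gene symbol in the scanner files, or the gene named by its accessions or its description, was one of these 9. The rule found 19 of the 60305 probes of the array, for 7 of the 9 genes. There were 4 probes for LIPE, 3 each for PNPLA2, PLIN1 and ADRB3, and 2 each for MGLL, ABHD5 and ADRB1. No probe was matched to G0S2 or PDE3B, which were not analysed here.

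In the fat cell, noradrenaline binds beta-adrenergic receptors, cAMP rises, and protein kinase A phosphorylates hormone-sensitive lipase and the droplet coat protein perilipin 1. Phosphorylated perilipin 1 releases ABHD5, which activates adipose triglyceride lipase (PNPLA2), and the diglycerides and monoglycerides that follow are split by hormone-sensitive lipase (LIPE) and monoglyceride lipase (MGLL). Insulin counters this chain through PDE3B, which breaks cAMP down, and G0S2 binds and inhibits PNPLA2.

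The subcutaneous adipose tissue (SCAT) of 26 castrated growing pigs was profiled, with 1 animal per one-colour array. The study asked how a short heat exposure changes the tissue. Its design also holds 3 breeds, which are compared here as well. Creole pigs numbered 3 at thermoneutrality (TN, 24 °C) and 5 under heat stress (HS, 30 °C on the labels, while the growth protocol of the same labels gives a higher temperature). There were 4 TN and 5 HS pigs of the F1 cross between Large White (LW) and Creole, and 4 TN and 5 HS pigs of LW. Per the methods of the study, the pigs were littermates in blocks and shared pens by breed, and the TN pigs were slaughtered before the room was warmed, so that temperature, day of slaughter and age cannot be told apart. Age and agents are not given by the labels. A whole tissue sample cannot tell fewer cells of a type apart from less RNA per cell.

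A probe was tested when Feature Extraction, the scanner software, marked it as well above background on at least 8 arrays. This left 44703 probes, of which 18 belonged to the 7 genes. From 41313 to 46184 probes were well above background on an array, and no spot was saturated. Every one of the 5 slides held arrays of both temperatures. Of 15 adipocyte markers that are no members, 12 had a tested probe, among them ADIPOQ, LEP, FABP4 and PPARG. The adipocyte score, the mean over these markers of the deviation from their average over all arrays on the log2 scale, came to 0.013 ± 0.133 for TN (SD, n = 11) and to -0.010 ± 0.187 for HS (SD, n = 15).

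The probes are 60 bases long, and the sequences below are shown because probes of the same gene did not always give the same call. They are printed 5′ to 3′ as the scanner files hold them, without genome coordinates. The representative probe of each lipase gene (its tested probe with the highest mean level) and a second LIPE probe held the letters AATAAA, in capitals, which are known as the common polyadenylation signal. On the printed strand 10.3% of the 60305 probes held these letters, and on either strand 14.1% did. A stretch of 30 bases is given for each.
PNPLA2 probe O9017, bases 31 to 60: ccaaagcagatgtAATAAAcgccacagccc
LIPE probe A_72_P223552, bases 31 to 60: ttgtttgttgtaAATAAAgatatttaatta
MGLL probe A_72_P155351, bases 27 to 56: acatctagttctAATAAAccagatgttttc
The LIPE probe O11623 is the same sequence moved by 2 bases, with 58 bases in common. A further probe of each of the 3 lipase genes, in which the letters AATAAA do not occur, is shown whole because it gave a larger temperature difference than the representative probe.
PNPLA2 probe A_72_P076816: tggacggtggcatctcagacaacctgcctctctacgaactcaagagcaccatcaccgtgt
LIPE probe A_72_P551986: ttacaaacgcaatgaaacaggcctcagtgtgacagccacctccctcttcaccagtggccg
MGLL probe A_72_P370923: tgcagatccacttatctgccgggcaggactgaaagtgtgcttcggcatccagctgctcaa

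The PLIN1 probes A_72_P001626 and O15023 overlap by 11 bases, shown in capitals at the end of the one and the start of the other. They are shown with the other PLIN1 probe because 1 of the 3 passed for temperature and the others did not.
PLIN1 probe A_72_P001626, bases 31 to 60: attagatatgggctctatgGCCACAGTTCA
PLIN1 probe O15023, bases 1 to 30: GCCACAGTTCAttcccagccctatttttga
PLIN1 probe A_72_P077326: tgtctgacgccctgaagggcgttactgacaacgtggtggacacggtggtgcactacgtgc
The ABHD5 probes, which gave the largest breed difference among the 18, have no more than 6 bases in a row in common on either strand, and the first 30 bases of each are shown.
ABHD5 probe A_72_P165056, bases 1 to 30: ggctttcctttctcctacacaaaatcaaaa
ABHD5 probe O12272, bases 1 to 30: taaaattttctcttcagcttctttaaggtg
The ADRB1 probes cover the same stretch, moved by 6 bases, and differ at 5 of 54 aligned bases, in capitals.
ADRB1 probe O8687: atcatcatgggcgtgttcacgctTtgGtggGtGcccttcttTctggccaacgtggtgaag
ADRB1 probe A_72_P440476: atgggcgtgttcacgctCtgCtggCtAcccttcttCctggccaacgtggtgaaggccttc

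The first question was whether HS changed the transcripts of the pathway in the 3 breeds together. The differences of the 3 lipases lay on the lower side in HS, and those of ADRB1 on the higher side, all by less than 1.5-fold. After adjustment over all tested probes, 1 of the 18 probes was differentially expressed, a PLIN1 probe, against 12.2% of all tested probes and 7.02% that were lower. None of the 7 genes passed at its representative probe (limma), against 12.6% of the named genes. At an unadjusted p under 0.05 there were 9 of the 18 probes, against 26.9% of all tested probes. Over all tested probes 5.18% were higher. The difference of HS minus TN was below 0 for 15 of the 18 probes, with a median of -0.15 on the log2 scale. Over all tested probes 49.3% were below 0, and the median was 0.0025. Probes of the same gene are not independent, so the genes were also counted, each at its representative probe. The difference was below 0 for 5 of the 7 genes, against 51.2% of the named genes.

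**Figure D1:**
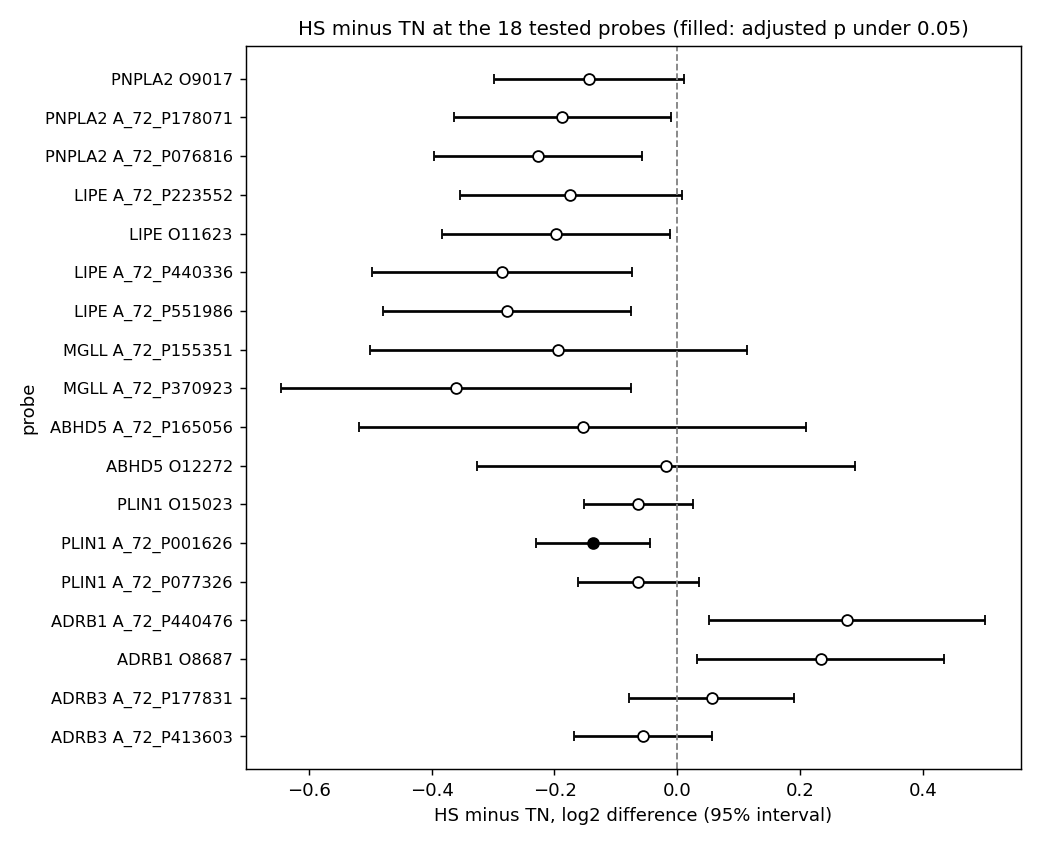
HS minus TN for the 18 tested probes, as log2 differences (x axis) with 95% intervals, probe by probe (y axis); a filled point marks an adjusted p under 0.05. All 9 lipase probes lie below 0 and both ADRB1 probes above it, and the single filled point is the PLIN1 probe A_72_P001626 at -0.14.

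PNPLA2, the lipase that takes the first fatty acid off a triglyceride, is represented by the probe O9017. Its normalized log2 intensity ran from 14.91 to 15.44 with a median of 15.28 in the 11 TN arrays, and from 14.83 to 15.57 with a median of 15.04 in the 15 HS arrays. The ranges overlapped, and 12 of 15 HS arrays lay below the TN mean of their own breed. The difference was -0.14 ± 0.075 (SE), or 0.905-fold (limma, adjusted p = 0.223, 95% interval from -0.30 to 0.011). The other PNPLA2 probes differed by -0.19 (A_72_P178071, adjusted p = 0.16) and by -0.23 (A_72_P076816, adjusted p = 0.0709). For A_72_P076816, 14 of 15 HS arrays were below the TN mean of their breed.

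LIPE, which encodes hormone-sensitive lipase, had intensities of its probe A_72_P223552 from 16.68 to 17.44 in TN, with a median of 17.17. In HS they ran from 16.51 to 17.24, with a median of 17.01. The arrays of both temperatures overlapped over most of the range, and 10 of 15 HS arrays lay below the TN mean of their breed. The difference was -0.17 ± 0.088 (SE), or 0.887-fold (limma, adjusted p = 0.204, 95% interval from -0.35 to 0.007). The 3 other LIPE probes gave -0.20 (O11623, adjusted p = 0.157), -0.28 (A_72_P551986, adjusted p = 0.0642) and -0.29 (A_72_P440336, adjusted p = 0.0704).

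MGLL, which encodes the lipase of the last step, varied widely between animals. Its probe A_72_P155351 ran from 15.99 to 17.12 in TN with a median of 16.37, and from 15.60 to 17.37 in HS with a median of 16.14. The HS range enclosed the TN range. The difference of -0.19 ± 0.149 (SE) did not pass (limma, adjusted p = 0.434, 95% interval from -0.50 to 0.114). For the second probe, A_72_P370923, the difference was -0.36 ± 0.139 (adjusted p = 0.089), with 13 of 15 HS arrays below the TN mean of their breed. It passed with array weights (adjusted p = 0.0472) and with the muscle score as a covariate (adjusted p = 0.0249). It did not pass with 75th percentile scaling (adjusted p = 0.0599), normexp background correction (adjusted p = 0.0897) or the values of the series matrix (adjusted p = 0.0877).

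Since every slide held both temperatures, the lipase differences were also taken slide by slide, as plain means and after the breed part of the fit over all 26 arrays was removed, because breeds were not spread evenly over slides. The plain HS mean was below the plain TN mean on 5 of 5 slides for all 4 LIPE probes, with differences from -0.56 to -0.039, and for PNPLA2 O9017, from -0.23 to -0.072. It was lower on 4 of 5 slides for the other PNPLA2 probes, where slide 5 gave 0.039 (A_72_P178071) and 0.011 (A_72_P076816). MGLL was lower on 4 of 5 slides at A_72_P370923 (0.23 on slide 5) and on 3 of 5 at A_72_P155351. After removal of the breed part, the differences were below 0 on 5 of 5 slides for the 3 PNPLA2 probes, the 4 LIPE probes and MGLL A_72_P370923, and on 4 of 5 for MGLL A_72_P155351, where slide 4 gave 0.27. The breed part is estimated from arrays of all slides, so these adjusted values are not separate for each slide. Slide 1 held only 1 TN array, and the share of all tested probes with the same sign on every slide was not counted. With the slide as a fixed effect, A_72_P178071 (-0.23, adjusted p = 0.00715) and A_72_P076816 (-0.27, adjusted p = 0.00191) of PNPLA2 and A_72_P551986 (-0.32, adjusted p = 0.00563) and A_72_P440336 (-0.31, adjusted p = 0.0415) of LIPE passed the threshold. With PLIN1 A_72_P001626 this made 5 of 18 probes, against 13.5% of all tested probes in that fit.

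**Figure D2:**
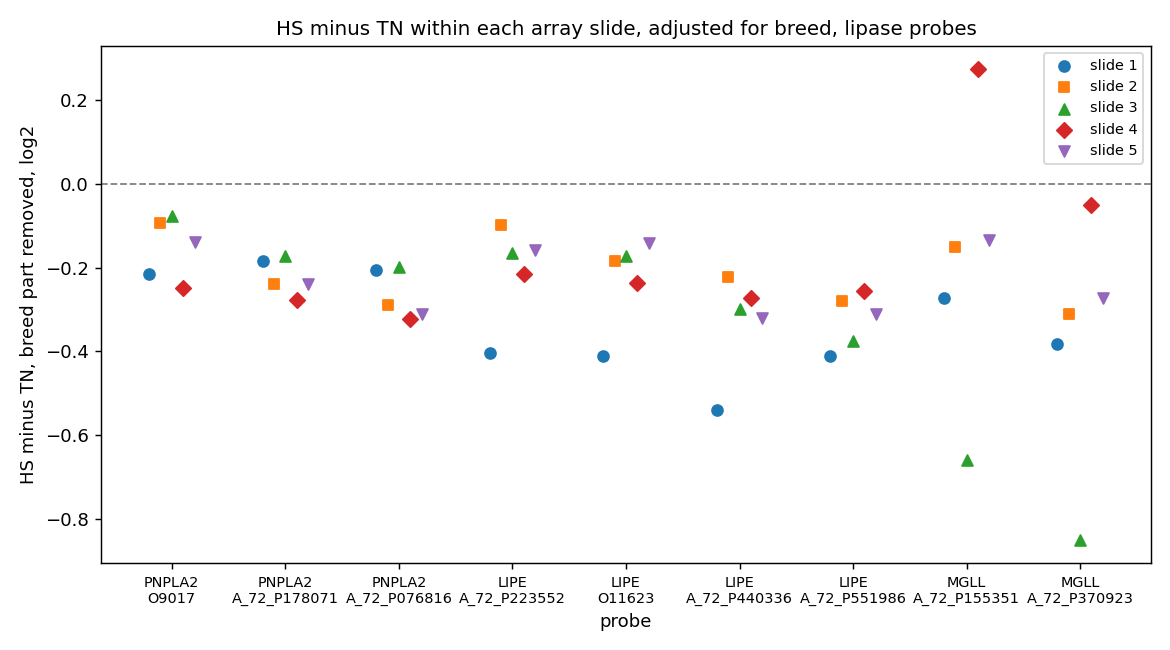
HS minus TN on the log2 scale after the breed part of the fit was removed (y axis) within each of the 5 array slides (symbols), for the 9 probes of the 3 lipases (x axis). All such adjusted values of PNPLA2 and LIPE lie below 0, and MGLL spreads most, from -0.85 to 0.27.

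The scaling of the arrays also moved these calls. When each array was scaled to its 75th percentile instead of quantile-normalized, 8 of the 18 probes were differentially expressed, against 14.1% of all tested probes. They were 2 of PNPLA2, 3 of LIPE and 2 of PLIN1, all lower in HS, and A_72_P440476 of ADRB1, higher in HS. The median over all tested probes was 0.0158 under that scaling. The score of the red blood cell markers differed with temperature. It ran from 0.033 to 0.465 over the TN arrays (mean 0.165 ± 0.117) and from -0.491 to 0.275 over the HS arrays (mean -0.121 ± 0.206). Of the 6 measured markers 2 were lower, HBB (-0.847) and EPB42 (-0.385), against 7.67% of the named genes. AHSP (-0.468) and HEMGN (-0.107) lay on the lower side and SLC4A1 (0.058) and ALAS2 (0.043) on the higher side, and none of these passed. With that score as a covariate 0 of the 18 probes and 0.481% of all tested probes passed (limma). The part of red blood cells in these differences was not tested. Fibroblast markers were higher in HS for 4 of 11, and none of 17 skeletal muscle markers passed, with a median difference of 0.504. Of 7 endothelial markers 1 was lower, CDH5 (-0.23, adjusted p = 0.0254), and of the 12 adipocyte markers ADIPOQ was higher (0.16, adjusted p = 0.0379) and CIDEA lower (-0.43, adjusted p = 0.000233).

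PLIN1 encodes perilipin 1, the protein that coats the droplet and guards it against lipases. The intensities of the probe A_72_P001626 ran from 14.40 to 14.75 in TN with a median of 14.66, and from 14.33 to 14.74 in HS with a median of 14.45. The ranges overlapped, and 11 of 15 HS arrays were below the TN mean of their breed. The probe was lower by -0.14 ± 0.045 (SE), or 0.909-fold (limma, adjusted p = 0.0463, 95% interval from -0.23 to -0.044). The 2 other PLIN1 probes gave -0.064 each (O15023, adjusted p = 0.358, and A_72_P077326, adjusted p = 0.421). The call at A_72_P001626 was lost on leaving out 1 array in 18 of 26 cases (adjusted p up to 0.0883). It held only without array 2, 3, 4 or 5 of Creole HS, array 2 of Creole TN, array 2 of F1 TN, or array 2 or 5 of F1 HS. With every array kept, the call was also lost without the probe filter, the intensity trend or the breed term. The same held with the red blood cell score as a covariate.

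ABHD5 encodes the activator of PNPLA2. Its probe A_72_P165056 differed between HS and TN by -0.15 ± 0.177 (adjusted p = 0.621, 95% interval from -0.52 to 0.21). The other probe, O12272, gave -0.019 ± 0.150 (adjusted p = 0.953, 95% interval from -0.33 to 0.29). Both intervals include 0, and the difference at O12272 changed sign in 8 of 26 fits that left out 1 array, between -0.094 and 0.045.

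ADRB1 encodes the beta-1 receptor. The probe A_72_P440476 ran from 7.07 to 7.79 in TN with a median of 7.47, and from 7.29 to 8.31 in HS with a median of 7.67. The HS arrays reached higher, although the ranges overlapped, and 12 of 15 HS arrays were above the TN mean of their breed. The difference was 0.28 ± 0.109 (SE), or 1.21-fold (limma, adjusted p = 0.0983, 95% interval from 0.052 to 0.502). The overlapping probe O8687 gave 0.23 ± 0.098 (adjusted p = 0.118), with 13 of 15 HS arrays above. Within slides the difference of A_72_P440476 was positive on 4 of 5 and that of O8687 on 3 of 5, as plain means and adjusted for breed. Without array 4 of F1 HS the difference of A_72_P440476 passed, at 0.32 with an adjusted p of 0.0374. It also passed with the skeletal muscle score as a covariate, at 0.32 with an adjusted p of 0.0435, and its adjusted p ran from 0.0435 to 0.708 over all alternatives with every array.

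ADRB3, which encodes the beta-3 receptor, lay close to background throughout. The probe A_72_P177831 was well above background on 17 of 26 arrays, A_72_P413603 on 13 and O14670 on none, so that O14670 has only an upper bound. The differences at the tested probes were 0.056 (A_72_P177831, adjusted p = 0.628, 95% interval from -0.079 to 0.191) and -0.056 (A_72_P413603, adjusted p = 0.549, 95% interval from -0.17 to 0.057), in opposite directions. O14670 and A_72_P413603 carry the identical sequence of 60 bases, shown here beside the other ADRB3 probe.
ADRB3 probes A_72_P413603 and O14670: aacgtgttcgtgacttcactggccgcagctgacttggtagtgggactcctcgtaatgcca
ADRB3 probe A_72_P177831: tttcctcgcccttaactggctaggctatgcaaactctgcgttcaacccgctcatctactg
In spite of the shared sequence, the spot of A_72_P413603 was well above background on 13 of 26 arrays and that of O14670 on 0, and no difference between them is given because the latter has only a bound.

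**Figure D3:**
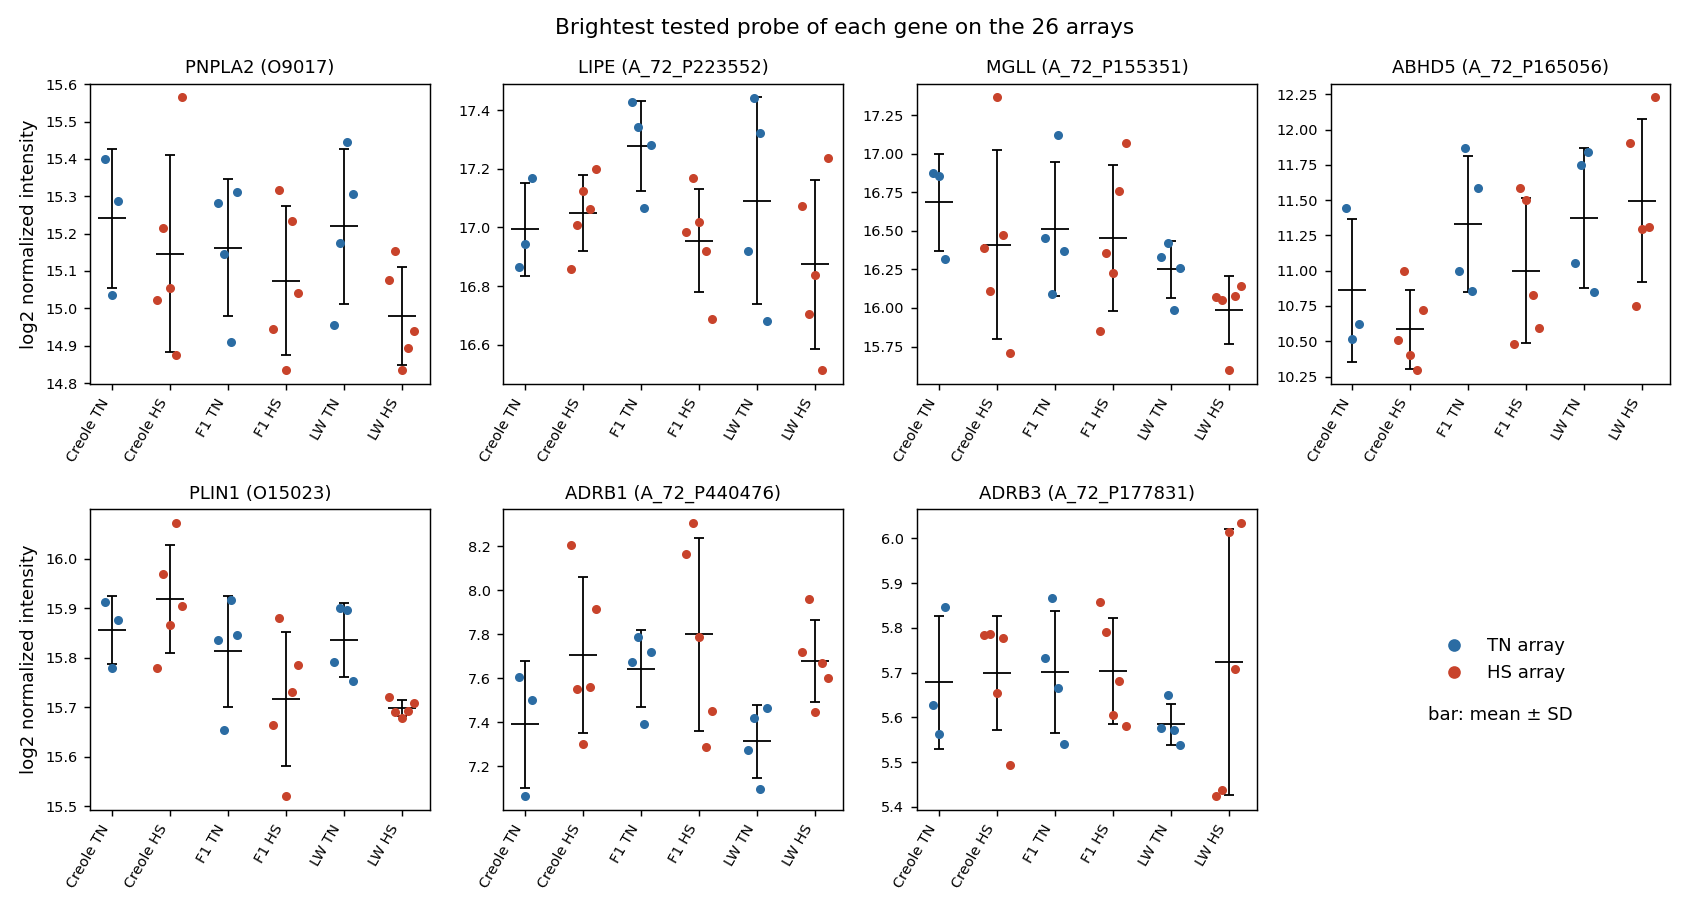
Normalized log2 intensity (y axes) of the brightest tested probe of each of the 7 genes in the 6 groups (x axes), 1 point per array, blue for TN and red for HS, with the mean ± SD as a black bar. TN and HS points overlap in the range of nearly every gene and breed, and the LW HS points of PLIN1 lie close together between 15.68 and 15.72.

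The design also allows the response to be compared between breeds. Within Creole 0 of the 18 probes passed (limma), against 0.0537% of all tested probes, and within F1 0 passed, against 0.421%. At an unadjusted p under 0.05 there was 1 probe in Creole, against 11.1% of all tested probes, and there were 4 in F1, against 15.9%. Within LW 1 passed and was lower, against 1.52% of all tested probes and 1.11% that were lower. No probe of the 18 passed the test of the interaction between breed and temperature (limma, smallest adjusted p = 0.897), against 0.00224% of all tested probes, and 1 had an unadjusted p under 0.05, against 5.23%. The breeds are therefore described side by side and not called different.

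LIPE in F1 gave -0.32 (A_72_P223552, adjusted p = 0.268), in LW -0.22 (adjusted p = 0.473) and in Creole 0.057 (adjusted p = 0.945). In F1 the TN arrays of this probe read 17.43, 17.34, 17.07 and 17.28, and the HS arrays 16.98, 17.17, 17.02, 16.92 and 16.69. All F1 HS arrays except 1 were below every F1 TN array. In Creole the TN arrays read 16.87, 16.94 and 17.17, within the HS values of 16.86, 17.01, 17.12, 17.06 and 17.20. Its interaction had an unadjusted p of 0.208 (limma, adjusted p = 0.897). For PNPLA2 at O9017, Creole gave -0.095, F1 -0.088 and LW -0.24, all on the lower side (adjusted p from 0.359 to 0.872). For ADRB1 at A_72_P440476 they were 0.32, 0.16 and 0.37, all on the higher side (adjusted p from 0.337 to 0.741).

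In LW the PLIN1 probe A_72_P001626 was lower in HS. The TN arrays read 14.67, 14.70, 14.75 and 14.65, and the HS arrays 14.42, 14.33, 14.34, 14.41 and 14.37. The groups did not overlap. The difference was -0.32 ± 0.062 (SE), or 0.802-fold (limma, adjusted p = 0.0131, 95% interval from -0.45 to -0.19). At the overlapping probe O15023 the TN arrays read 15.79, 15.90, 15.90 and 15.75 and the HS arrays 15.72, 15.69, 15.68, 15.69 and 15.71, again without overlap, although the difference of -0.14 did not pass (adjusted p = 0.322). These overlapping probes followed each other over the arrays (Pearson r = 0.88 with group means removed), so they are not separate evidence. The share of all tested probes without overlap was not counted, here or for the other groups and breeds. The remaining probe, A_72_P077326, gave 0.002 in LW (adjusted p = 0.995), unlike the others. At A_72_P001626 the difference was 0.025 in Creole and -0.093 in F1, and its interaction had an unadjusted p of 0.003 and an adjusted p of 0.897. The call in LW was lost with the slide as a fixed effect (-0.28, adjusted p = 0.0936), with the red blood cell score as a covariate (-0.29, adjusted p = 0.25) and without array 2 of LW TN (-0.32, adjusted p = 0.0504). Over all alternatives with every array its adjusted p ran from 0.00584 to 0.25.

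The breeds were also compared with each other, with temperature in the model. ABHD5 was higher in LW than in Creole at both of its probes, and PLIN1 was lower at 2 of its 3 probes but did not pass at its representative probe. Of the 18 probes 4 were differentially expressed, against 14.3% of all tested probes, both ABHD5 probes on the higher side (6.89% of all tested probes) and 2 PLIN1 probes on the lower side (7.43%). Of the 7 genes, each at its representative probe, ABHD5 passed, against 15.3% of the named genes. The difference of LW minus Creole was below 0 for 16 of the 18 probes, with a median of -0.10. Over all tested probes 49.5% were below 0, and the median was 0.0025. At the representative probes the difference was below 0 for 6 of the 7 genes, against 52.1% of the named genes.

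**Figure D4:**
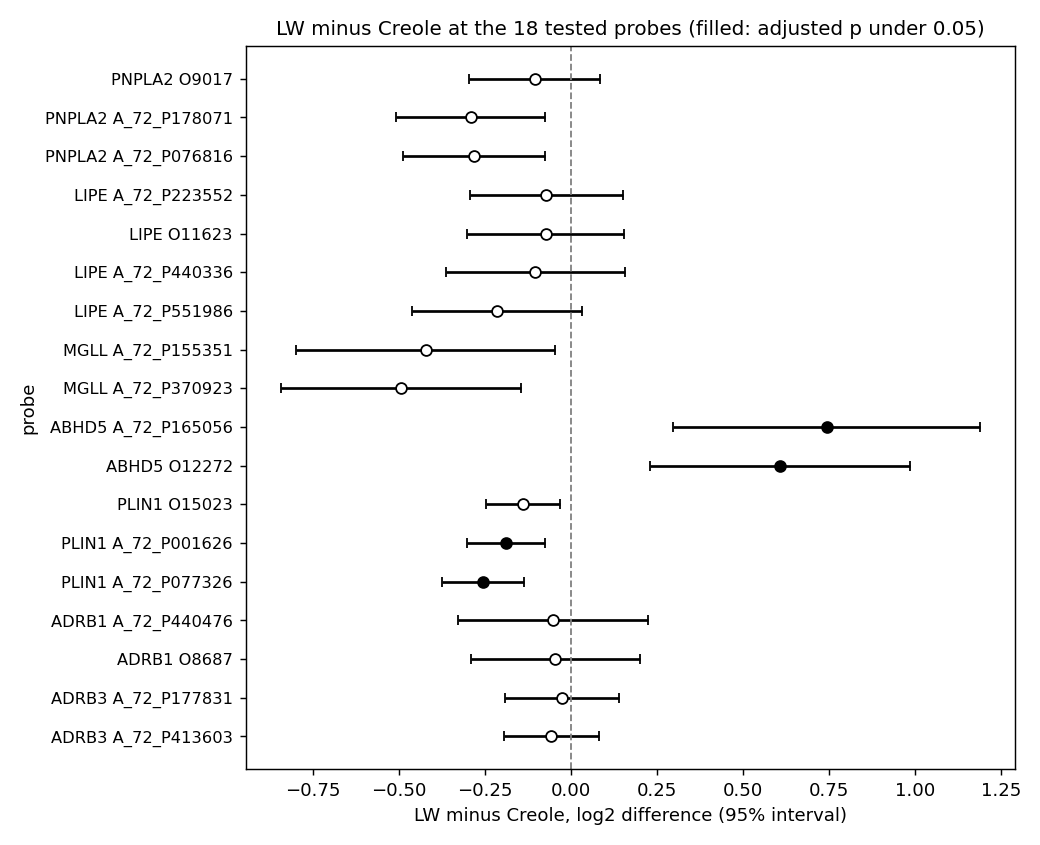
LW minus Creole for the 18 tested probes, as log2 differences (x axis) with 95% intervals, probe by probe (y axis); a filled point marks an adjusted p under 0.05. Both ABHD5 probes lie to the right, at 0.74 and 0.61, and 2 of the 3 PLIN1 probes are filled on the left, at -0.19 and -0.26.

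For ABHD5, the probe A_72_P165056 ran from 10.29 to 11.44 with a median of 10.57 in the 8 Creole arrays, and from 10.75 to 12.23 with a median of 11.31 in the 9 LW arrays. The 9 F1 arrays lay between 10.48 and 11.87 with a median of 11.001. All 9 LW arrays were above the Creole median and 4 of 9 were above every Creole array. The difference was 0.74 ± 0.216 (SE), or 1.67-fold (limma, adjusted p = 0.0228, 95% interval from 0.30 to 1.19). It stayed past the threshold without any one of the 26 arrays (adjusted p up to 0.0467). Plain LW means were above plain Creole means on 4 of 4 slides that held both breeds, by 0.108 to 1.55. Of these, slides 3 and 5 held only 1 Creole array each.

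The other ABHD5 probe, O12272, was well above background on 25 of 26 arrays. Creole arrays ran from 5.61 to 6.65 with a median of 6.13, and LW arrays from 6.05 to 7.44 with a median of 6.73. Of the 9 LW arrays, 6 were above every Creole array. The difference was 0.61 ± 0.183 (SE), or 1.52-fold (limma, adjusted p = 0.0273, 95% interval from 0.23 to 0.99), and it was positive on 4 of 4 slides, as plain means and adjusted for temperature. The call was lost without array 2 of LW HS, array 2 of Creole TN, or array 3 or 4 of Creole HS (adjusted p up to 0.0634). Under the 75th percentile scaling this difference was 1.08 (adjusted p = 0.0391), and over all alternatives with every array the adjusted p ran from 0.00973 to 0.0496. Once group means were removed, the 2 ABHD5 probes followed each other only loosely over the 26 arrays (Pearson r = 0.293, Spearman rho = 0.253, two-sided permutation test p = 0.199, adjusted p = 0.199 over 16 pairs of probes of the same gene), the lowest r of the 16 pairs. The pairs of PLIN1 had an r from 0.496 to 0.88 and that of ADRB3 one of 0.395, and those of PNPLA2, LIPE, MGLL and ADRB1 ranged from 0.719 to 0.988.

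LW minus Creole was not tested within each temperature, and the ABHD5 means are given side by side. At A_72_P165056 the difference was 0.51 between the TN means (11.37 ± 0.496 in LW, SD, n = 4, and 10.86 ± 0.508 in Creole, SD, n = 3) and 0.91 between the HS means (11.50 ± 0.578 in LW and 10.59 ± 0.279 in Creole, SD, n = 5 each). In HS 4 of 5 LW arrays were above every Creole HS array, and in TN 2 of 4 LW arrays were above every Creole TN array. At O12272 the difference between means was 0.256 in TN and 0.86 in HS. The interaction of A_72_P165056 did not pass (limma, adjusted p = 0.928).

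PLIN1 was lower in LW at A_72_P077326, where Creole arrays ran from 11.61 to 11.89 with a median of 11.69 and LW arrays from 11.33 to 11.61 with a median of 11.44. Of the 9 LW arrays, 8 were below every Creole array. The difference was -0.26 ± 0.059 (SE), or 0.838-fold (limma, adjusted p = 0.00563, 95% interval from -0.38 to -0.14), and it stayed past the threshold without any one array (adjusted p up to 0.014). At A_72_P001626 the difference was -0.19 ± 0.055, or 0.878-fold (adjusted p = 0.0232), with 5 of 9 LW arrays below every Creole array, and without temperature in the model it did not pass (-0.18, adjusted p = 0.0753). The representative probe, O15023, gave -0.14 ± 0.052 (adjusted p = 0.0732), and all 3 probes were lower in LW on 4 of 4 slides, as plain means and adjusted for temperature. The difference at O15023 passed without array 2 of Creole TN (-0.17, adjusted p = 0.0426). Split by temperature, LW minus Creole at A_72_P001626 was 0.014 in TN and -0.33 in HS and at O15023 -0.020 in TN and -0.221 in HS, whereas at A_72_P077326 it was -0.32 in TN and -0.21 in HS.

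**Figure D5:**
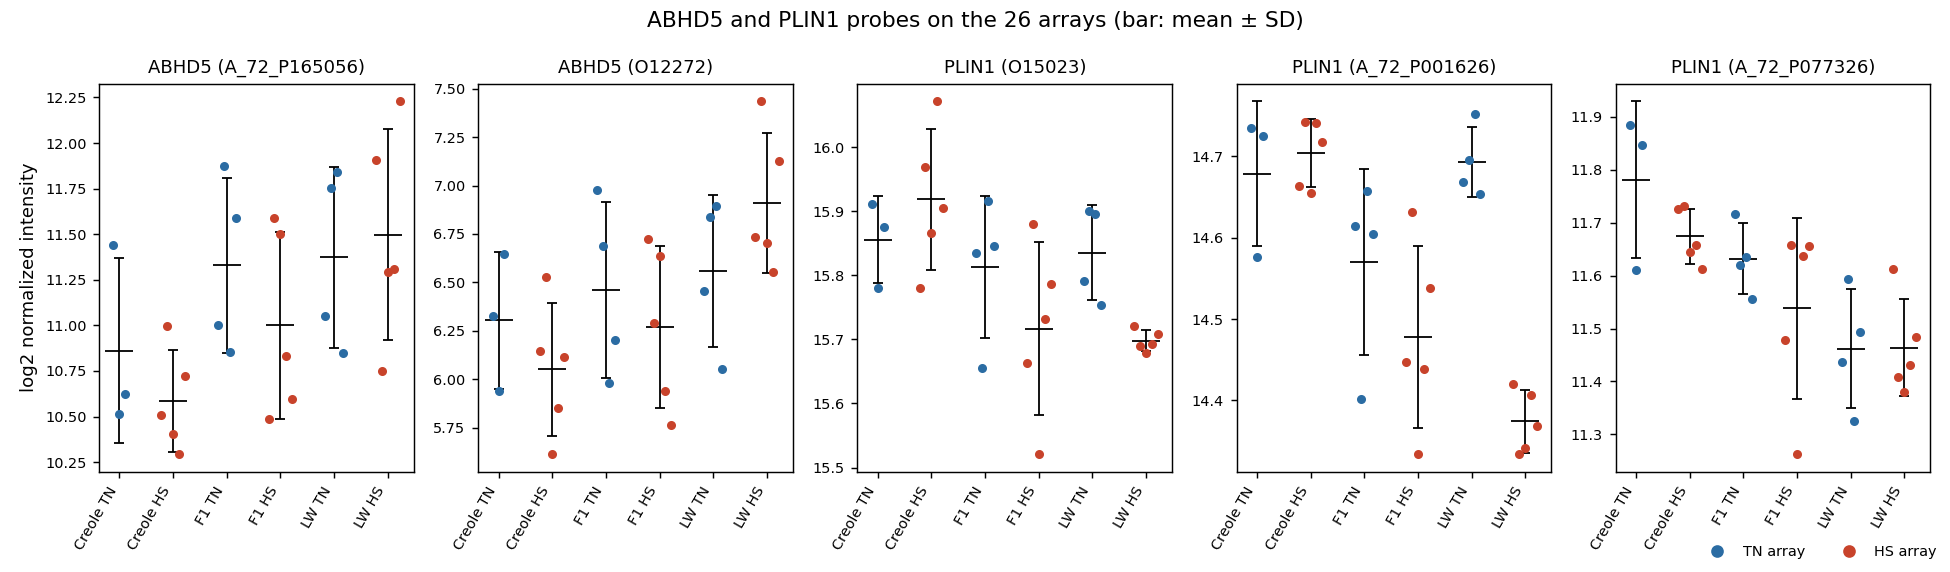
Normalized log2 intensity (y axes) of the 2 ABHD5 and 3 PLIN1 probes in the 6 groups (x axes), 1 point per array, blue for TN and red for HS, with the mean ± SD as a black bar. The ABHD5 means are lower in Creole than in LW at both temperatures while the points of the TN groups overlap, and at PLIN1 A_72_P001626 the 5 LW HS points, from 14.33 to 14.42, lie below the 4 LW TN points, from 14.65 to 14.75.

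Cell type markers moved with breed as well. Adipocyte scores ran from -0.137 to 0.378 in Creole (mean 0.109 ± 0.178, SD, n = 8) and from -0.241 to 0.059 in LW (mean -0.109 ± 0.089, SD, n = 9), and 3 of its 12 measured markers were lower in LW. Of 11 fibroblast markers 4 were higher in LW, with scores of -0.102 ± 0.326 in Creole and 0.174 ± 0.220 in LW. Of 7 endothelial markers 1 was higher in LW, with scores of -0.141 ± 0.164 in Creole and 0.061 ± 0.082 in LW. Skeletal muscle markers had a median difference of -0.83, and 0 of 17 passed. With the muscle score as a covariate the ABHD5 difference at A_72_P165056 was 0.84 (adjusted p = 0.0205). The part of adipocytes, fibroblasts and endothelial cells in the PLIN1 and ABHD5 differences was not tested.

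No lipase probe passed between LW and Creole. At MGLL the probe A_72_P370923 ran from 11.13 to 12.72 in Creole with a median of 11.88 and from 11.06 to 11.99 in LW with a median of 11.51. The difference was -0.50 ± 0.170 (SE), or 0.71-fold (limma, adjusted p = 0.0506, 95% interval from -0.84 to -0.15). It passed with 75th percentile scaling (adjusted p = 0.0337), with array weights (adjusted p = 0.038), on the values of the series matrix (adjusted p = 0.0499) and among probes well above background on all arrays (adjusted p = 0.0453), and its adjusted p was up to 0.16 with the muscle score as a covariate. The probe A_72_P155351 gave -0.42 ± 0.183 (adjusted p = 0.123). Without array 5 of Creole HS the latter was -0.53 and passed (adjusted p = 0.0382). At PNPLA2 the probes A_72_P178071 and A_72_P076816 gave -0.29 and -0.28 (adjusted p = 0.0638 and 0.0605). Both passed with 75th percentile scaling (adjusted p = 0.0412 and 0.0485) and with array weights (adjusted p = 0.0445 and 0.0437), and A_72_P178071 also with the slide as a fixed effect (-0.20, adjusted p = 0.0431). O9017 gave -0.11 (adjusted p = 0.481). LIPE differed by -0.071 at A_72_P223552 (adjusted p = 0.709, 95% interval from -0.29 to 0.15).

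The receptors showed no called breed difference. ADRB1 gave -0.053 (A_72_P440476, adjusted p = 0.836, 95% interval from -0.33 to 0.223), and ADRB3 gave -0.026 (A_72_P177831, adjusted p = 0.867, 95% interval from -0.19 to 0.139). Both intervals include 0, and with the slide as a fixed effect both differences turned to the higher side, at 0.023 and 0.0049.

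F1 pigs were compared with the mean of LW and Creole, a test of the distance from the parental mean and not of whether the cross lay between its parents. None of the 18 probes passed (limma, smallest adjusted p = 0.451), against 0.00671% of all tested probes, and 2 had an unadjusted p under 0.05, against 8.69%. The F1 mean lay between the means of LW and Creole for 9 probes and above both for 9, among them the 4 LIPE and 2 ADRB1 probes, with no test of that position. The largest departures were 0.26 for MGLL (A_72_P370923, 95% interval from -0.038 to 0.554) and 0.22 for PNPLA2 (A_72_P076816, 95% interval from 0.046 to 0.397). ABHD5 in F1 was 0.075 above the parental mean at A_72_P165056 (95% interval from -0.30 to 0.453), and at O12272 the difference was -0.095 (95% interval from -0.42 to 0.225).

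The members were next set against each other over the 26 arrays, after the mean of each group was removed. Of the 21 pairs of genes, 0 passed after adjustment. The closest pair was LIPE and ABHD5 (Pearson r = 0.601, two-sided permutation test p = 0.00825, adjusted p = 0.173; Spearman rho = 0.571, p = 0.0102, adjusted p = 0.214), and r was 0.577 without the 2 arrays farthest from the median. MGLL and ADRB1 had an r of -0.507 (p = 0.0433, adjusted p = 0.455, Spearman rho = -0.458, p = 0.0503), and -0.401 without the 2 farthest arrays. A slide holds from 4 to 7 arrays, too few in most cases for a value within slides.

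The genes most like each member over the same 26 arrays were taken from 9981 named genes, again with group means removed and as a description. MGLL was closest to AQP11 (r = 0.895), TSPAN17 (r = 0.88) and LOC100512560 (r = 0.872), and ABHD5 to IFRD1 (r = 0.86), DDHD1 (r = 0.851) and SERINC3 (r = 0.843). ADRB1 was closest to RGS3 (r = 0.843), ANKRD12 (r = 0.839) and RGS12 (r = 0.827). RGS proteins are known to speed up the switching off of G proteins. LIPE was closest to FBXW2 (r = 0.805), DNAJB9 (r = 0.801) and TMEM128 (r = 0.791), and PNPLA2 to TTC13 (r = 0.756), DUOX1 (r = 0.754) and PFKFB3 (r = 0.742). ADRB3 was closest to GSPT2 (r = 0.734), PHOSPHO1 (r = 0.729) and CARM1 (r = 0.684), and PLIN1 to GFAP (r = 0.682), NCMAP (r = 0.669) and NASP (r = 0.59). The ADRB3 probe lay close to background and was well above it on only 17 of 26 arrays, which limits its values. The points share arrays, slides and normalization.

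Other genes of the pathway were counted from 4 lists, 1 probe per gene. Among 11 other droplet proteins and carriers of fatty acids or glycerol, 2 were lower in HS and 1 was higher, against 7.67% of the named genes that were lower and 4.95% that were higher. PLIN2, a droplet coat protein that is widespread outside fat cells, read 11.20 ± 0.513 in TN (SD, n = 11) and 10.35 ± 0.380 in HS (SD, n = 15), a difference of -0.85 ± 0.171 (SE, adjusted p = 0.00224), and 15 of 15 HS arrays were below the TN mean of their breed. The other PLIN2 probe, O11670, gave -0.49 (adjusted p = 0.000297). CIDEA, a protein of droplet fusion and also an adipocyte marker here, fell by 0.43 ± 0.065 (adjusted p = 0.000233) and was also lower in 15 of 15 HS arrays. These counts of arrays come from the same data as the calls and are no separate support for them. PLIN3, another coat protein, rose by 0.19 ± 0.063 (adjusted p = 0.0445).

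Of 13 brakes on lipolysis, 1 was higher, IRS1, an adaptor of the insulin receptor, by 0.29 ± 0.080 (adjusted p = 0.0188). At IRS1 15 of 15 HS arrays lay above the TN mean of their breed, a count from the same data as the call. Of the named genes 4.95% were higher and 12.6% passed in either direction. The 3 other probes of IRS1 gave 0.118, 0.081 and 0.051 and did not pass. None of 4 genes of the natriuretic peptide branch (smallest adjusted p = 0.0627) and none of 7 other lipases (smallest adjusted p = 0.126) passed by limma at their representative probes. In these 4 lists, some genes that did not pass at the representative probe did so at another and are named after their values were seen. They were NPR1, a natriuretic peptide receptor (0.25, adjusted p = 0.0353), ACSL1, which activates fatty acids (-0.66 and -0.75, adjusted p = 0.0206 and 0.0249), AQP7, a glycerol channel (-0.245, adjusted p = 0.0466), and FABP4, a fatty acid carrier (-0.49 and -0.21, adjusted p = 0.00405 and 0.0386). All other probes of these genes did not pass, among them the representative FABP4 probe at 0.004 (adjusted p = 0.954). Between LW and Creole, 2 of the 11 droplet proteins and carriers were lower and 1 was higher, against 8.6% of the named genes that were lower and 6.68% that were higher. Of the 13 brakes 1 was lower and 2 were higher, of the 7 other lipases 1 was lower, and of the 4 natriuretic genes 0 passed (limma, smallest adjusted p = 0.158).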

How the data were processed

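SCAT RNA from 26 pigs was measured on one-colour Agilent arrays of porcine design. Each deposited scanner file gives an intensity per spot (median pixel intensity, local background and a background-subtracted processed intensity), made with Agilent Feature Extraction 10.10.1.1 per the submitters' processing notes. The authors also deposited a matrix of log2 intensities for 44104 probes, used as an alternative only. Its quantile-normalized columns matched the values computed here (lowest r = 0.999997).

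Median intensities were quantile-normalized without background correction, log2-transformed, and up to 16 non-uniform spots per array were set missing (R 4.3.3, limma 3.58.1). Linear models with an intensity trend were fitted to the 44703 probes that at least 8 arrays showed well above background. The temperature model included breed, LW minus Creole and F1 minus the parental mean with temperature as a fixed effect, and changes within breeds and the interaction from 6 group means. Benjamini-Hochberg adjustment ran across the whole set of probes, and 0.05 was the threshold. The study's model also had pen, day of slaughter and both parents as random effects, which the labels do not give and which were left out, so pigs of a group were treated as independent. The fits were tested on simulated data.

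Each gene is represented by its tested probe with the highest mean level, and the other probes are described. Probes were named through accessions (10106 spots), symbols (13946) or synonyms (195) of a RefSeq pig gene list (Sscrofa11.1), and 36058 spots had no name. The members, gene lists and tests were chosen with earlier results of these data known. From each list the genes past the threshold for temperature are named. Correlations used 100000 permutations (Python, scipy). The number of arrays limits the precision. Alternatives changed the scaling, background correction, probe filter, trend, array weights, slide, covariates, model terms, probe averaging and, in turn, each array. A further list of pathway genes is not reported here.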

Additional observations from a re-analysis of the deposited data

Results flagged for a closer look

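In 4 of 90 sets of a probe and a group of 4 or 5 arrays (4.44%), the lowest array stood apart from the others by Dixon's test at the 5% level, and chance gives about 1 in 20. They were MGLL probe A_72_P155351 in LW HS, where array 3 read 15.60 and the next 16.05, PNPLA2 probe A_72_P076816 in Creole HS, where array 4 read 9.88 and the next 10.05, PNPLA2 probe A_72_P178071 in F1 TN, where array 3 read 11.01 and the next 11.42, and the same probe in LW TN, where array 1 read 10.72 and the next 11.11.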

How the results depend on the processing

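No paired analysis was possible because the labels give no replicate numbers pairing pigs across groups. Of 888 values for single probes or pairs of genes under alternatives with every array, 837 kept their direction and their side of the threshold, and of 165 counts of members past the threshold 149 stayed within 1.5 times. The cause of the changes below was not tested.

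The count of member probes past the threshold for temperature was 1. It was 8 of 18 with 75th percentile scaling (14.1% of all tested probes in the same fit), 5 with array weights (15%), 5 with the slide as a fixed effect (13.5%), 3 with the slide as a random block (13.3%), 4 with the muscle score as a covariate (16.2%), and 0 without the filter (7.57%), without the intensity trend (12.2%), without the breed term (7.9%) or with the red blood cell score as a covariate (0.481%). It ran from 0 to 3 when 1 array was left out. For the representative probes of the genes this count went from 0 to 4 with 75th percentile scaling and to 1 with the muscle score, and ran from 0 to 1 with 1 array left out. Between LW and Creole 7 member probes passed with 75th percentile scaling (15.1% of all tested probes) and 7 with array weights (16.7%), against 4, and 2 genes passed with the mean of all probes of a gene, against 1. With 1 array left out from 1 to 2 genes passed. Within LW the count of 1 fell to 0 with the slide as a fixed effect or the red blood cell score, and ran from 0 to 1 with 1 array left out.

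The differences that changed sign had not passed the threshold. With 75th percentile scaling these were F1 minus mid-parent of PLIN1 A_72_P077326 (0.00569) and PNPLA2 O9017 (0.0213), within Creole LIPE A_72_P223552 (-0.0752), PLIN1 A_72_P001626 (-0.0559) and PLIN1 O15023 (-0.0537), and within LW PLIN1 A_72_P077326 (-0.0763). With the slide as a fixed effect they were F1 minus mid-parent of ADRB3 A_72_P177831 (-0.0131), LW minus Creole of ADRB1 (0.0232), ADRB3 (0.0049) and LIPE (0.00021), within Creole LIPE (-0.00104) and PLIN1 A_72_P001626 (-0.00666), within F1 ADRB3 (-0.0114), and within LW ABHD5 A_72_P165056 (-0.0344) and PLIN1 A_72_P077326 (-0.00829). With the mean of all probes of a gene they were F1 minus mid-parent of ABHD5 (-0.00962) and PNPLA2 (0.106), and ADRB3 for temperature (-0.00012), within Creole (-0.0535) and within F1 (-0.00273), and PLIN1 within Creole (-0.006). With the red blood cell score they were within F1 ADRB1 (-0.00829) and MGLL (0.172) and within LW ABHD5 (-0.309) and MGLL (0.00631). With the muscle score they were within LW ABHD5 (-0.018) and PLIN1 A_72_P077326 (-0.0383). Within F1, ADRB3 was -0.00659 with normexp and -0.00909 with array weights, and MGLL was 0.00224 with array weights. Correlations that changed sign were ABHD5 with PLIN1 (-0.144 with 75th percentile scaling, -0.249 on raw levels, -0.086 without the 2 extreme arrays), ABHD5 with ADRB3 (-0.004) and ADRB1 with ADRB3 (-0.025) without the 2 extreme arrays, and LIPE with ADRB1 (-0.022) and PLIN1 with ADRB3 (-0.068) on raw levels.

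With 1 array left out, F1 minus mid-parent ran from -0.00712 to 0.154 for ABHD5 A_72_P165056, from -0.0249 to 0.0274 for PLIN1 A_72_P077326 and from -0.0609 to 0.011 for PNPLA2. LW minus Creole ran from -0.109 to 0.0201 for ADRB1 and from -0.0731 to 0.00934 for ADRB3. The temperature difference of ABHD5 O12272 ran from -0.0935 to 0.0451. Within Creole the ranges were -0.449 to 0.0162 for ABHD5, -0.0379 to 0.104 for ADRB3, -0.00631 to 0.145 for LIPE and -0.0259 to 0.0539 for PLIN1 A_72_P001626. Within F1 they were -0.051 to 0.0576 for ADRB3 and -0.212 to 0.145 for MGLL, and within LW -0.0581 to 0.311 for ABHD5 A_72_P165056 and -0.0438 to 0.0456 for PLIN1 A_72_P077326. The scan time equalled the slide, so the scan was not run as a block of its own. ADRB3 was near background, and 3 to 5 arrays per group set the precision of the values within breeds.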
